A study of Rattus norvegicus with 48 samples.

Results

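The plantaris of 6 LRT rats was compared with that of 6 HRT rats after 3 d of hindlimb immobilization (HI), which uses 12 of the 48 libraries of the series. All rats were females of 14 months from generation 19 of lines bred from genetically heterogeneous rats for a low (LRT) or a high (HRT) response to treadmill training, and they had been through that training earlier in life. One hindlimb was cast with the foot plantar-flexed, both groups received puromycin shortly before collection, and the plantaris was taken from the cast limb under anaesthesia. The libraries were chosen by their labels for line, muscle and treatment, and no measured value entered the choice. Uncast rats of the same lines (CTRL, 6 per line, other animals) and the soleus of HI rats are given for comparison, and their libraries also enter the fit that sets the spread. Each line is a breeding population, so the contrast is between lines and not between single alleles.

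Plantaris is a mixed, mostly fast-twitch calf muscle that flexes the foot. An unloaded muscle loses protein through the ubiquitin-proteasome system, where E3 ligases such as Trim63 (MuRF1) and Fbxo32 (atrogin-1) tag proteins, and through autophagy, where cargo is delivered to lysosomes. NF-kappaB signalling and genes that respond to lost nerve activity, such as Gadd45a and Myog, are known to take part in muscle wasting.

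The total of estimated counts was between 26.8 M and 36.4 M in the LRT HI libraries and between 29 M and 30.7 M in the HRT HI libraries. RNA integrity numbers ran from 8.3 to 8.6 and from 7.9 to 8.5. Values below are CPM, counts per M of the TMM-adjusted library size, which serve to compare a gene between rats and not 2 genes with each other. A positive log2 fold change is higher in LRT. A gene was called at a Benjamini-Hochberg adjusted p under 0.05 in edgeR's quasi-likelihood test over 16960 genes, fitted on all 48 libraries with RNA integrity as a covariate.

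A pair of LRT rats stood apart from the others before any gene was tested. On the first principal component of the 12 libraries, which took 32.6% of the variance, LRT rat 1 scored 64.5 and LRT rat 3 scored 60.3, and the highest of the HRT rats was rat 4 at 26.9. The other 9 rats lay between -35.2 and 2.0. The median over genes of the SD of log2 CPM was 0.292 in LRT HI and 0.257 in HRT HI, against 0.198 and 0.173 in the uncast LRT and HRT rats. Both HI groups spread more than the uncast groups, while the fit estimates 1 spread per gene over all 8 groups.

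The markers of skeletal muscle fibres (10 genes, among them Mylpf, Casq1 and Pvalb) summed to between 7760 and 23100 CPM in LRT HI and between 10700 and 21800 CPM in HRT HI. None of its 10 genes was called, and none was at 0 in all libraries. Of the 6 erythroid, 10 fibroblast, 3 tendon, 3 smooth muscle, 5 endothelial, 9 leukocyte and 5 fat markers, 0 were called. The summed fibroblast markers lay between 272 and 905 CPM in LRT HI and between 284 and 795 CPM in HRT HI. The fat markers lay between 49.5 and 103 CPM against 82.7 and 134 CPM, with medians of 77.6 and 112 CPM. In the uncast rats their medians lay the other way, at 127 CPM in LRT and 91.8 CPM in HRT. Cd1d1, a fat marker here that is also in a list of interferon and antigen presentation, averaged 33.8 CPM in LRT HI and 58.9 CPM in HRT HI. Cidea, another fat marker, was higher in LRT HI, at means of 3.6 and 1.69 CPM. In whole muscle, fewer cells of a type and less RNA per cell cannot be told apart.

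The comparison called 410 of 16960 genes (2.42%). Of these, 278 (1.64% of the genes tested) were higher and 132 (0.778%) were lower in LRT, and 101 (0.596%), 59 of them higher and 42 lower, also passed an absolute log2 fold change of 1. The 6 LRT and 6 HRT values did not overlap in 82 of the 410, and this held for 153 genes (0.902%) in all. The median log2 fold change over all genes was 0.00034.

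How many genes passed differed with the libraries in the fit. With the 24 plantaris libraries alone 186 genes passed, and with the 12 HI plantaris libraries alone 13 passed (4 higher and 9 lower in LRT), 0 of which had a symbol, with 1718 genes at an unadjusted p under 0.05 in edgeR. Leaving out LRT rat 1 left 92 genes and leaving out LRT rat 3 left 121. Leaving out HRT rat 4 gave 1586, and leaving out LRT rat 6 gave 1208. Without HRT rats 2, 3, 5 or 6 the counts were 202, 170, 169 and 137. Without both LRT rats 1 and 3, a setting chosen after seeing the data, 45 genes passed, and the median absolute log2 fold change of the 410 was 0.426 in place of 0.629. In the 12 fits that each leave out 1 rat, 70 of the 410 genes passed every time, 7 of them with a symbol: Tmem51, Nfkb2, Slc12a4, Creg1, Ltbp1, Dupd1 and Dusp13. Without both LRT rats 1 and 3 only Tmem51 of the 48 called genes with a symbol still passed (log2 fold change 1.66, edgeR adjusted p = 0.000108). The log2 fold changes were then 0.77 for Nfkb2, 0.57 for Slc12a4, 0.75 for Creg1, 0.46 for Ltbp1, 1.498 for Dupd1 and 0.36 for Dusp13, with adjusted p between 0.057 and 0.452.

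**Figure D1:**
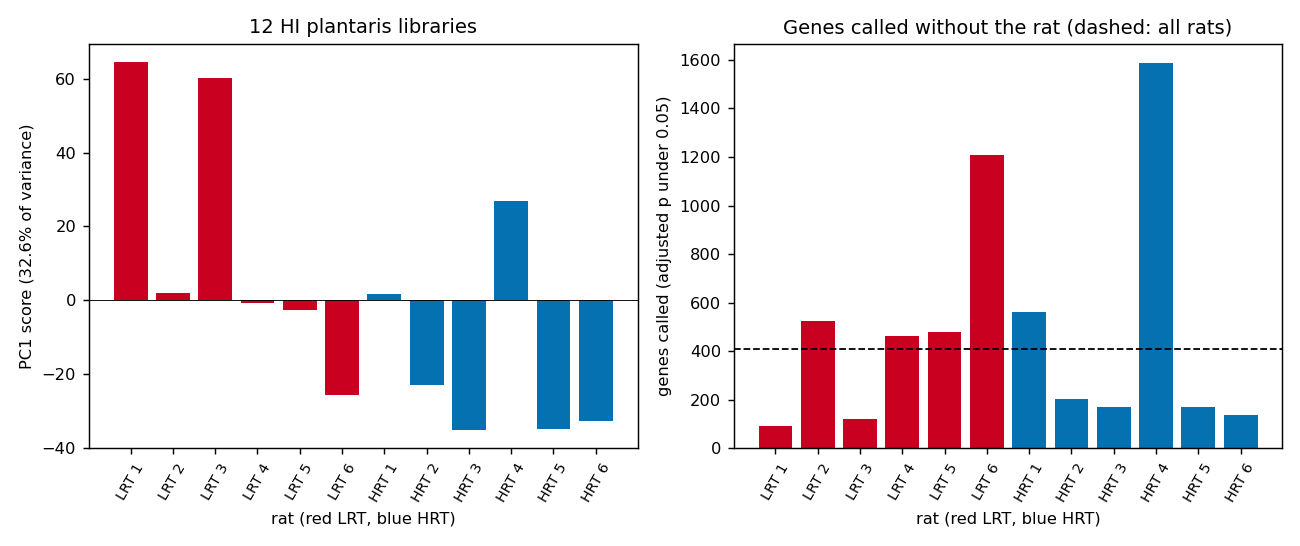
The left panel plots the PC1 score of each of the 12 HI plantaris libraries (red LRT, blue HRT), and the right panel the number of genes called when that rat is left out, with a dashed line at 410. LRT rats 1 and 3 score 64.5 and 60.3, and the count falls to 92 and 121 without them and rises to 1586 without HRT rat 4.

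Symbols were at hand for 1148 of the genes. All were drawn from the study's own lists of genes that differed between HI and CTRL in these samples, so named genes are a selected group. Members of the gene lists below all come from this group, so list medians and counts of direction carry the same selection and only describe. A log2 fold change above 0 was found in 521 (45.4%) of the 1148 and in 50.1% of all 16960 genes. Of the 1148, 48 (4.18%) were called, 35 higher and 13 lower in LRT, and the other 362 called genes have no symbol here. Absolute log2 fold changes ran from 0.56 to 2.52 among the 35 and from 0.50 to 1.24 among the 13. In 33 of the 35 the highest pair of LRT rats was 1 and 3, and in 26 of the 35 the highest HRT rat was 4. Among the 13 lower genes LRT rats 1 and 3 were the lowest pair in 9, and HRT rat 4 was the lowest HRT rat in 10.

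**Figure D2:**
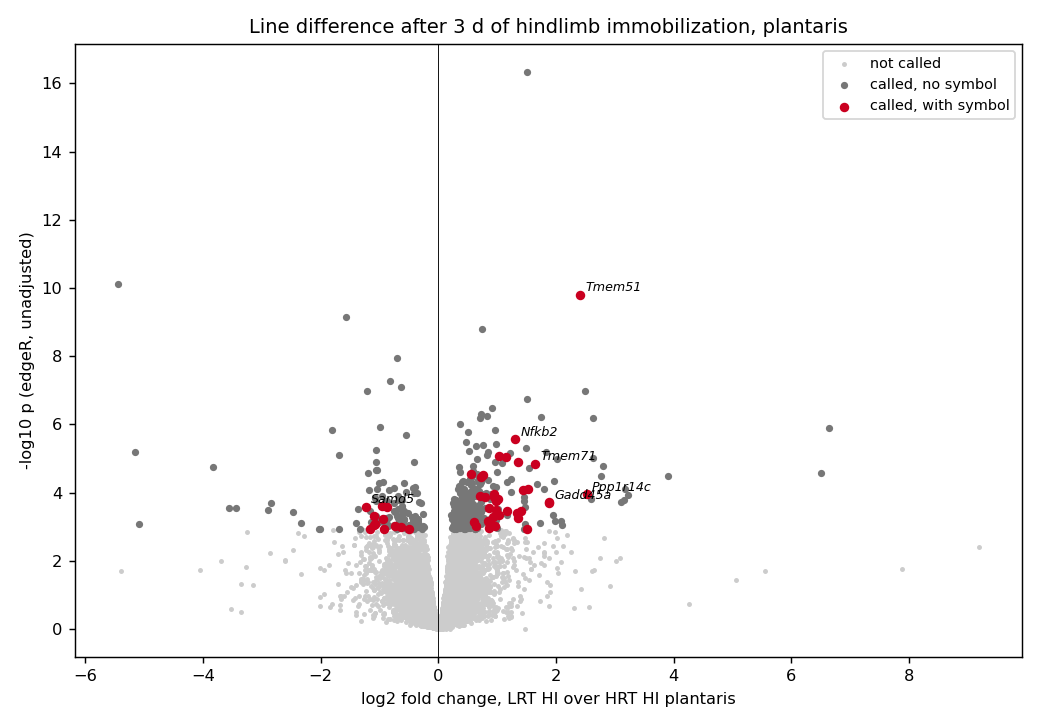
Each point is 1 of the 16960 genes, with the log2 fold change of LRT HI over HRT HI plantaris on the x axis and -log10 of the unadjusted edgeR p on the y axis. Light grey points were not called, dark grey points were called and have no symbol, and red points are the 48 called genes with a symbol, of which Tmem51 has the smallest p.

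Tmem51 (ENSRNOG00000014197), a membrane protein of little studied function, had the smallest p of the genes with a symbol. Its level was 11.99, 3.47, 6.92, 5.005, 2.12 and 1.87 CPM in LRT HI rats 1 to 6, and 1.06, 0.955, 0.818, 0.714, 1.33 and 1.01 CPM in HRT HI rats 1 to 6. The groups did not overlap, and HRT rat 4, the highest HRT rat in 26 of the 35 higher genes, was the lowest here. Tmem51 was 5.30-fold higher in LRT (log2 fold change 2.41 ± 0.29, SE, edgeR adjusted p = 8.9e-07). In the uncast rats the ranges were 1.12 to 2.20 CPM in LRT and 0.943 to 1.38 CPM in HRT, with a log2 fold change of 0.55 (adjusted p = 0.503). With the 12 libraries alone its adjusted p was 0.0996.

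**Figure D3:**
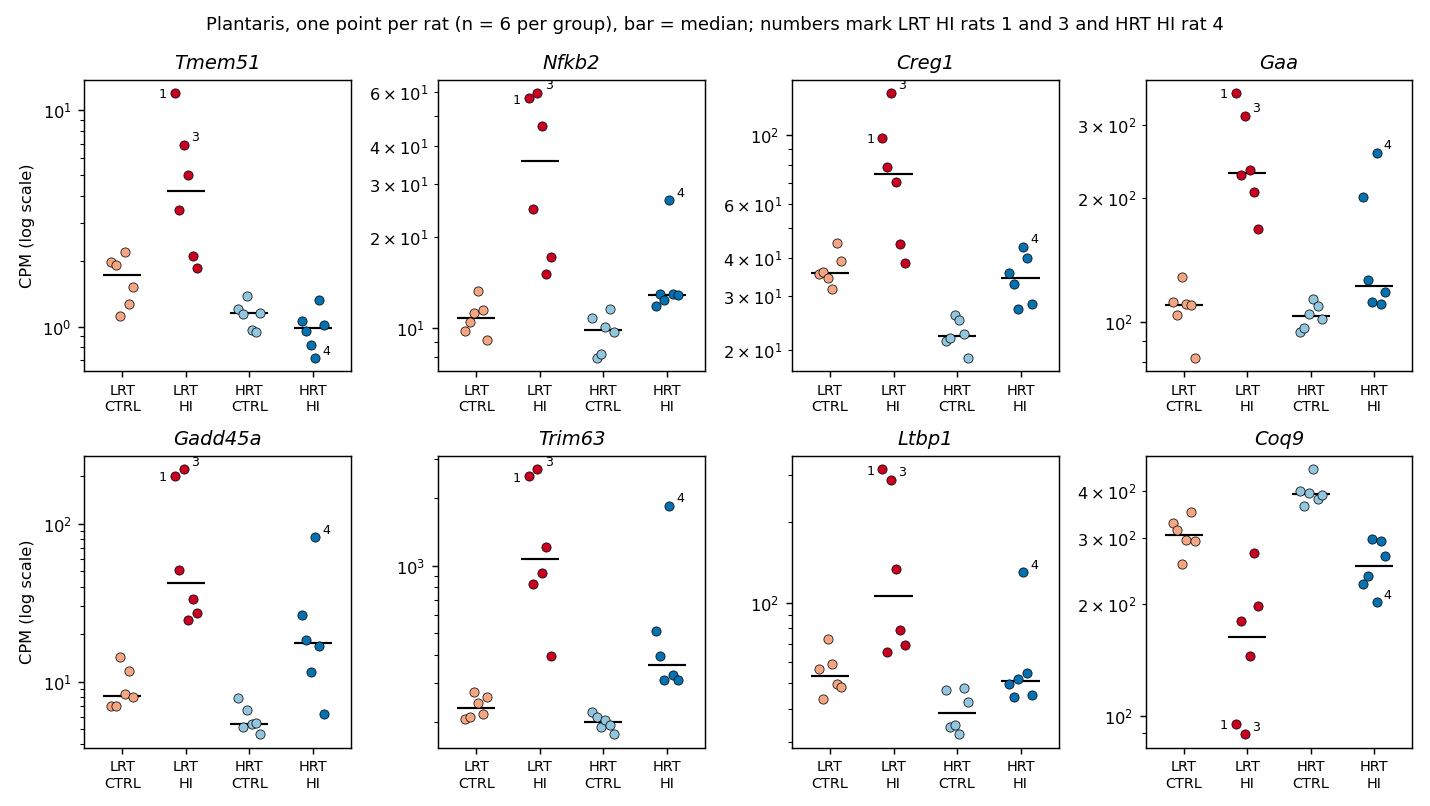
CPM on a log axis for 8 genes in the plantaris of LRT CTRL, LRT HI, HRT CTRL and HRT HI rats, 1 point per rat (6 per group) with a bar at the median. The numbers mark LRT HI rats 1 and 3 and HRT HI rat 4, and the HI groups do not overlap for Tmem51 but overlap for the other 7 genes.

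Nfkb2 (ENSRNOG00000019311) encodes p100, the precursor of the p52 subunit of NF-kappaB. Its level was 57.4, 24.8, 59.7, 46.5, 15.1 and 17.2 CPM in LRT HI rats 1 to 6 and 11.8, 12.9, 12.4, 26.4, 12.98 and 12.85 CPM in HRT HI rats 1 to 6. All 6 LRT values were above 5 of the 6 HRT values, and HRT rat 4 alone reached into the LRT range. Nfkb2 was higher in LRT by a log2 fold change of 1.31 ± 0.24 (SE, edgeR adjusted p = 0.00188), and in CTRL the medians were 10.8 and 9.88 CPM.

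Of the 20 genes of an inflammation list, 3 were called, all higher in LRT, beside 4.18% of genes with a symbol. With single rats left out 1 to 5 passed, and 0 passed without LRT rats 1 and 3 or with the 12 libraries alone. The list median log2 fold change was 0.09, from -0.04 to 0.25 with single rats left out, and 11 of the 20 were above 0. Besides Nfkb2 these were Ripk2, a kinase of innate immune receptors, and Zc3h12a, an RNase that degrades cytokine mRNAs, with log2 fold changes of 0.94 ± 0.22 (adjusted p = 0.0164) and 1.04 ± 0.27 (adjusted p = 0.0323). Zc3h12a was at 21.1 and 17.4 CPM in LRT rats 1 and 3 and between 3.74 and 7.61 CPM in the other LRT rats, within the HRT range of 3.43 to 8.88 CPM. Map3k14, the NF-kappaB-inducing kinase that triggers p100 processing, did not pass (log2 fold change 1.07, adjusted p = 0.0621). The 9 leukocyte markers summed to between 17.5 and 23.5 CPM in LRT and between 18 and 29.5 CPM in HRT, and 0 of them were called.

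Relt, a receptor of the tumour necrosis factor family, was called outside the lists at 213, 79.5, 174, 85.7, 75.4 and 45.6 CPM in LRT HI rats 1 to 6 against 52.3, 23.5, 28.7, 86.7, 26.1 and 18.2 CPM in HRT. All HRT values but that of rat 4 lay below 5 of the 6 LRT values, and the log2 fold change was 1.52 ± 0.35 (SE, edgeR adjusted p = 0.0129). Tnfrsf19, another receptor of that family, went the other way with a log2 fold change of -1.16 ± 0.33 (adjusted p = 0.0499).

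Of the 16 members of the autophagy and lysosome list, 5 were called, all higher in LRT, beside 4.18% of genes with a symbol, 14 had a log2 fold change above 0, and the list median was 0.72. The called members were Creg1, a lysosomal glycoprotein, Gaa, the acid alpha-glucosidase that breaks down glycogen in lysosomes, Sqstm1 (p62), the receptor that hands ubiquitin-tagged cargo to autophagosomes, Tp53inp1, which binds autophagosome proteins, and Litaf, a protein of the endosome and lysosome membrane. Without LRT rats 1 and 3 the list median was 0.22 and 0 members were called, and with single rats left out between 1 and 12 members passed.

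Creg1 (ENSRNOG00000003291) was at 98.3, 78.7, 138, 70.7, 44.2 and 38.3 CPM in LRT HI rats 1 to 6 and at 35.6, 32.9, 27.3, 43.4, 40.0 and 28.2 CPM in HRT HI rats 1 to 6. LRT rats 1 to 5 lay above every HRT rat and LRT rat 6 lay within the HRT range. The log2 fold change was 1.16 ± 0.23 (SE, edgeR adjusted p = 0.00393). In the uncast rats the ranges were 31.6 to 44.5 CPM in LRT and 18.8 to 25.97 CPM in HRT, which did not overlap, with a log2 fold change of 0.71 (adjusted p = 0.171). In HI soleus Creg1 was called with a log2 fold change of 1.05.

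Gaa was at 359, 227, 315, 233, 207 and 168 CPM in LRT HI rats 1 to 6 and at 201, 126, 112, 257, 110 and 118 CPM in HRT HI rats 1 to 6. HRT rats 1 and 4 lay inside the LRT range and the other 4 below it. The log2 fold change was 0.71 ± 0.17 (SE, edgeR adjusted p = 0.0164), and in CTRL, where medians were 110 and 103 CPM, it was 0.06.

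Sqstm1 showed a similar pattern, with 2090 and 2117 CPM in LRT rats 1 and 3, between 622 and 1219 CPM in the other LRT rats, 1361 and 1021 CPM in HRT rats 4 and 1, and between 400 and 531 CPM in the other HRT rats. Its adjusted p of 0.0491 lay just inside the threshold (log2 fold change 0.87 ± 0.25). Tp53inp1 and Litaf had log2 fold changes of 0.86 ± 0.22 and 0.86 ± 0.24, with adjusted p of 0.0247 and 0.0414.

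Promoters of 3 called genes of these groups are shown because each holds a motif that was searched for. Creg1, Litaf, Zc3h12a and Relt matched a promoter that holds neither motif. They are the 250 bases before the annotated gene start in the rat build GRCr8 of RefSeq, which is not the build of the counts, and are written 5′ to 3′ on the strand of the gene. Capitals mark a match to the kappaB consensus in Nfkb2 and Sqstm1 and the letters CACGTG, the core bound by lysosomal regulators of the TFEB family, in Gaa. The windows are chr1:255108124-255108373 (plus strand) for Nfkb2, chr10:35037751-35038000 (minus strand) for Sqstm1 and chr10:105028105-105028354 (plus strand) for Gaa.
Nfkb2: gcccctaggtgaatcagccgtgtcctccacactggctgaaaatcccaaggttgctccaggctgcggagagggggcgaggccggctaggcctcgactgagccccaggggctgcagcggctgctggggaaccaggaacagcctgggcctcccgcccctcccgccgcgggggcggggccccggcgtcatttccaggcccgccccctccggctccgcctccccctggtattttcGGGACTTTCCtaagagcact
Sqstm1: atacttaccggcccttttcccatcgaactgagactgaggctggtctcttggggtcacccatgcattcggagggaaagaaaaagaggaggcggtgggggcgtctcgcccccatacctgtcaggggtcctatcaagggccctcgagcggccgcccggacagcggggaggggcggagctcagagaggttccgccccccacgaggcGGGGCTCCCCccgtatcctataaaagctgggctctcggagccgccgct
Gaa: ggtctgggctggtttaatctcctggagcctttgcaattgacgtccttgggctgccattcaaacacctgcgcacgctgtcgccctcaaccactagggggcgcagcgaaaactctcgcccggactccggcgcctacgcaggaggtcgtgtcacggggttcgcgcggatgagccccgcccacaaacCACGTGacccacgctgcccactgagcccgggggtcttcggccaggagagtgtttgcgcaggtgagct

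The matches begin 20, 48 and 67 bases before the gene start. Both strands were searched, and of 33469 promoter windows of the same length 3.54% held the kappaB consensus and 5.59% held CACGTG, whose letters read the same on both strands. Of the 48 called genes with a symbol 36 matched a RefSeq promoter, and 2 of the 36 held the kappaB consensus and 3 held CACGTG (Gaa, Pnpla7 and Slc31a2). A match describes these letters and not a bound site.

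Trim63 was at 2499, 829, 2689, 930, 1204 and 396 CPM in LRT HI rats 1 to 6 and at 512, 396, 308, 1843, 324 and 310 CPM in HRT HI rats 1 to 6. LRT rats 1 and 3 lay above all HRT rats, and HRT rat 4 lay above the other 4 LRT rats. The log2 fold change was 1.21 ± 0.36 (SE) and missed the threshold (edgeR adjusted p = 0.0559). It passed with DESeq2 (adjusted p = 0.0186) and limma-voom (0.0381), and without HRT rat 4 its log2 fold change was 1.93 (edgeR adjusted p = 0.000175). The edgeR fits without LRT rat 1, without LRT rat 3 or without both did not call it, nor did the 12 libraries alone. In each of these fits 0 members of its ubiquitin list were called higher in LRT. Fbxo32 had a log2 fold change of 0.69 ± 0.33 (adjusted p = 0.251), with ranges of 531 to 1723 CPM and 344 to 1443 CPM.

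Of 34 genes of ubiquitin ligases and ubiquitin handling, 2 were called, both higher in LRT, beside 4.18% of genes with a symbol. Both genes remove ubiquitin rather than attach it. Uchl1, a ubiquitin hydrolase, was at 8.39 and 6.38 CPM in LRT rats 1 and 3 and between 0.771 and 2.22 CPM in the other LRT rats, against 0.350 to 2.64 CPM in HRT (log2 fold change 1.89 ± 0.46, adjusted p = 0.0199). Otulin, which cleaves linear ubiquitin chains, had a log2 fold change of 1.17 ± 0.30 (adjusted p = 0.0279). Trim35, a ligase that the study followed, had a log2 fold change of -0.47 (adjusted p = 0.0874). No call was left in this list without LRT rats 1 and 3, and with single rats left out the count ran from 0 to 10, with 10 without HRT rat 4, 8 without LRT rat 6 and 0 without LRT rats 1 or 3 or HRT rats 2, 3, 5 or 6.

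All 8 proteasome genes had a log2 fold change above 0, beside 45.4% of genes with a symbol. Their values lay between 0.33 and 0.78 with a median of 0.61. Of the 8, 0 were called, and 6 had an unadjusted p under 0.05 in edgeR, as did 3109 of all 16960 genes. Psmb3, a core subunit, was at 226 and 193 CPM in LRT rats 1 and 3, between 61.4 and 102 CPM in the other LRT rats and between 45.4 and 133 CPM in HRT (adjusted p = 0.0742). Without LRT rats 1 and 3 the list median was 0.14.

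Genes of disuse and denervation had 2 calls in 20, both higher in LRT, beside 4.18% of genes with a symbol, with a list median of 0.69 and 16 of the 20 above 0. Without LRT rats 1 and 3 the median was 0.32 with 0 calls, and with single rats left out 0 to 11 members passed and the median reached up to 1.22. Gadd45a, a stress gene that rises when muscle loses its nerve supply, was at 201, 51.0, 221, 24.5, 33.5 and 27.04 CPM in LRT HI rats 1 to 6 and at 26.3, 18.4, 11.5, 82.2, 16.7 and 6.196 CPM in HRT HI rats 1 to 6. LRT rats 1 and 3 lay far above the highest HRT rat, and the other 4 lay within the HRT range. The log2 fold change was 1.88 ± 0.46 (SE, edgeR adjusted p = 0.0202). Myog, the transcription factor myogenin, had 1.51 ± 0.43 with an adjusted p of 0.0495, just inside the threshold. Hdac4, a repressor that acts upstream of Myog in denervated muscle, did not pass (log2 fold change 0.49, adjusted p = 0.559), and neither did Rrad, a small GTP-binding protein (2.19 ± 0.66, adjusted p = 0.0598).

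In the list of glycolysis and glycogen 20 of 24 genes lay at or below 0, with a median log2 fold change of -0.26, and 1 was called, lower in LRT, beside 4.18% of genes with a symbol. With single rats left out 0 to 4 members passed and the median ran from -0.455 to -0.08, and it reached -0.46 under another scaling.

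Of 33 mitochondrial genes 31 lay below 0 with a list median of -0.34, and only Coq9, a protein of coenzyme Q synthesis, was called, beside 4.18% of genes with a symbol. With single rats left out 0 to 5 members passed. Coq9 was at 95.1, 180, 89.1, 145, 273 and 197 CPM in LRT HI rats 1 to 6 and at 226, 237, 297, 202, 294 and 268 CPM in HRT HI rats 1 to 6, so that 5 LRT rats lay below every HRT rat. The log2 fold change was -0.64 ± 0.18 (SE, edgeR adjusted p = 0.0461), and -0.38 in CTRL (adjusted p = 0.44). Ppargc1b, a coactivator of mitochondrial genes, had -0.84 ± 0.28 (adjusted p = 0.0906). Gpd1 and Ppp1r3c, which the study followed, had -0.55 (adjusted p = 0.486) and -0.18 (adjusted p = 0.822). Without LRT rats 1 and 3 the list median was 0.10 for glycolysis and glycogen, which turned its direction, and -0.09 for mitochondria.

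**Figure D4:**
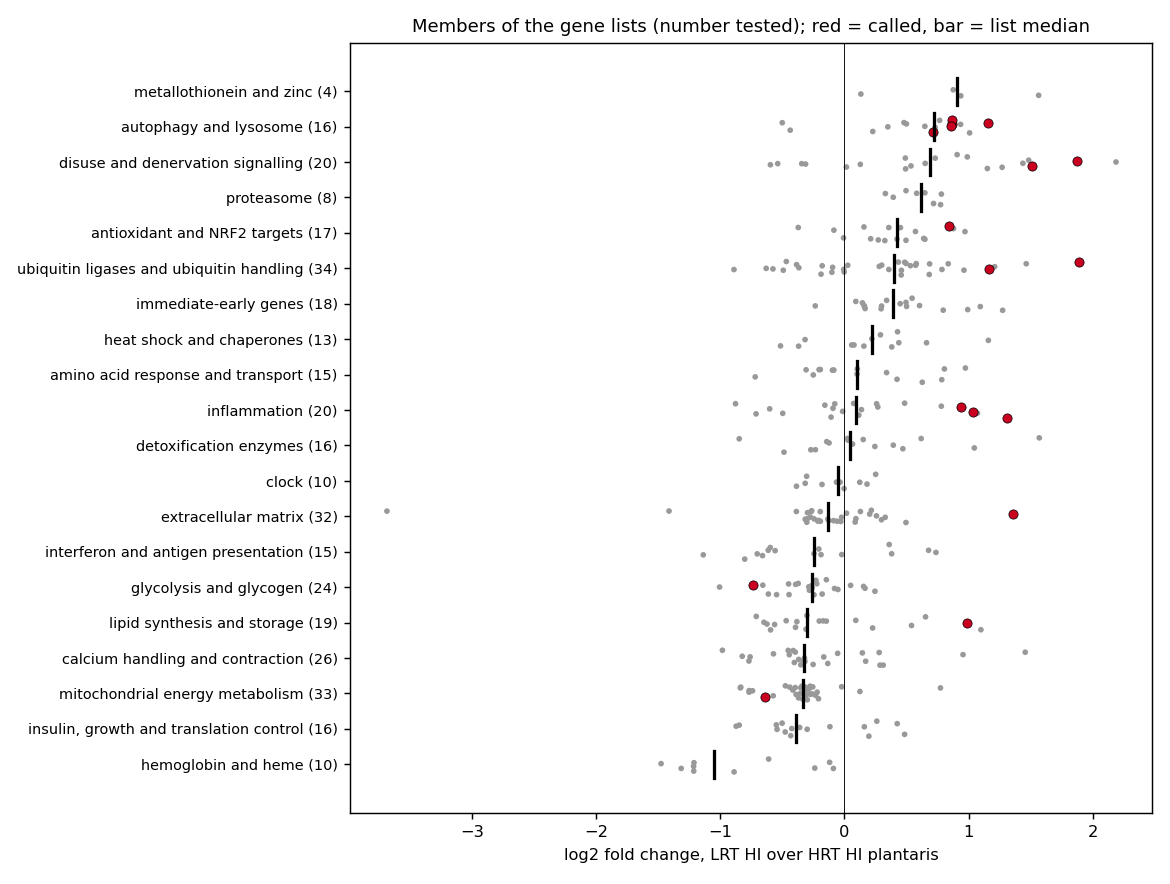
Log2 fold change of LRT HI over HRT HI plantaris for each member of the 20 gene lists, with the number tested in brackets, red points for called genes and a bar at the list median. Autophagy and lysosome sits at 0.72 with 5 calls, and mitochondrial energy metabolism at -0.34 with 1.

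The matrix, antioxidant and lipid lists had 1 call each, beside 4.18% of genes with a symbol, and with single rats left out 1, 0 to 8 and 0 to 3 members passed. Ltbp1, which binds latent TGF-beta in the matrix, was the only one of 32 matrix genes called, at 316, 65.4, 288, 133, 79.0 and 69.4 CPM in LRT HI rats 1 to 6 against 49.6, 44.1, 51.7, 130, 54.5 and 45.0 CPM in HRT HI rats 1 to 6. All 6 LRT values lay above 5 of the 6 HRT values (log2 fold change 1.36 ± 0.28, edgeR adjusted p = 0.00466), while the list median was -0.13 and ran from -0.28 to 0.15 with single rats left out. Blvrb, a biliverdin reductase, was called among 17 antioxidant and NRF2 target genes (0.84 ± 0.23, adjusted p = 0.0389), and Acsl4, an acyl-CoA ligase for long fatty acids, among 19 genes of lipid synthesis and storage (0.99 ± 0.25, adjusted p = 0.0264).

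In 11 of the 20 lists, proteasome included, 0 genes were called by edgeR, with 0 to 6 of their 4 to 26 members at an unadjusted p under 0.05 in each, beside 3109 of 16960 genes in all. All 4 metallothionein and zinc genes had a log2 fold change above 0 (median 0.91), and 17 of 18 immediate-early genes did (median 0.39). The immediate-early median was 0.205 at its lowest with 1 rat left out and 0.10 without LRT rats 1 and 3. All 10 hemoglobin and heme genes lay below 0 with a median of -1.05. For Hba-a2, whose reads can be shared with the near-identical Hba-a1, HRT rat 5 was at 823 CPM, the other HRT rats between 57.3 and 115 CPM and the LRT rats between 41.8 and 115 CPM. The summed erythroid markers of HRT rat 5 reached 3080 CPM, and the list median was -0.20 at its nearest to 0 with single rats left out. Over the 20 lists 17 of 365 genes (4.66%) were called, a share near the 4.18% of all genes with a symbol.

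Slc12a4, a potassium-chloride cotransporter, was at 114, 47.3, 88.3, 73.4, 38.5 and 30.2 CPM in LRT HI rats 1 to 6 and at 47.1, 26.2, 26.8, 39.8, 23.3 and 28.4 CPM in HRT HI rats 1 to 6. LRT rats 1 to 4 lay above all HRT rats, and the log2 fold change was 1.03 ± 0.20 (SE, edgeR adjusted p = 0.00366). Slc31a2, a copper transporter, had 0.76 ± 0.16 (edgeR adjusted p = 0.00805). Slc9a2, a sodium-proton exchanger, and Kcnh2, a potassium channel, were lower in LRT at -1.08 and -1.08, with adjusted p of 0.0447 and 0.0429.

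Among signalling genes Dupd1 and Dusp13, which encode dual-specificity phosphatases, were higher in LRT and passed in each fit with 1 rat left out. Dupd1 was at 10.4, 6.87, 7.49, 7.68, 18.9 and 6.47 CPM in LRT HI rats 1 to 6 and at 6.53, 2.01, 4.09, 2.55, 2.65 and 3.39 CPM in HRT HI rats 1 to 6, where only HRT rat 1 and LRT rat 6 overlapped. Its log2 fold change was 1.45 ± 0.33 (SE, edgeR adjusted p = 0.0133) and LRT rat 5, not 1 or 3, was highest. Without a cast, Dupd1 ranged from 12.5 to 18.3 CPM in LRT and from 5.16 to 9.87 CPM in HRT. These uncast ranges did not overlap, with a log2 fold change of 0.99 (edgeR adjusted p = 0.175). Dusp13 (ENSRNOG00000060401, 1 of 2 identifiers with that symbol) had 0.56 ± 0.12 (adjusted p = 0.00758). The other Dusp13 identifier was not called. Ppp1r14c, an inhibitor of protein phosphatase 1, had the largest difference of the 48 at 2.52 ± 0.59 (adjusted p = 0.0153), at 30.2 and 26.9 CPM in LRT rats 1 and 3 and between 2.18 and 7.65 CPM in the other LRT rats, against 0.750 to 5.18 CPM in HRT.

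Tnik and Rps6ka2, both kinases, and Lynx1, a modulator of nicotinic receptors, were lower in LRT with log2 fold changes of -0.94, -0.93 and -0.86. Lgr6, a receptor for R-spondins, was, with Tmem51, 1 of 2 called genes with a symbol whose HI groups did not overlap, with a range of 0.269 to 0.594 CPM in LRT and 0.605 to 1.07 CPM in HRT (log2 fold change -1.09 ± 0.29, edgeR adjusted p = 0.0338). The remaining called genes with a symbol were Tmem71, Cdkn2b, Tal2, Zdhhc18, Nsun4, Pnpla7, Depdc7, Anxa7, Pkig, H6pd, Myh14 and Emc3, which were higher, and Samd5, Shc3, LOC679811 and AABR07001555.1, which were lower. Tmem71 had the smallest adjusted p of these 16, 0.00495, with a log2 fold change of 1.64.

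The same contrast in the uncast rats called 89 of 16960 genes (0.525%). These are other animals, so the comparison does not share libraries. Of the 410 genes of the HI contrast 369 (90%) had the same direction in CTRL, against 10683 of all 16960 (63%), and 38 were called in both, all in the same direction, which is 9.27% of the 410 and 42.7% of the 89. The median absolute log2 fold change of the 410 was 0.629 in HI and 0.232 in CTRL, and it was larger in HI for 385, a comparison that favours HI because the genes were chosen there. For the 89 genes chosen in CTRL the medians were 0.567 in HI and 0.930 in CTRL.

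Of the 48 called genes with a symbol 2 were called in CTRL. Samd5 was lower in LRT in both, at 0.176 to 0.490 CPM in LRT HI against 0.446 to 1.65 CPM in HRT HI (log2 fold change -1.24, adjusted p = 0.0237) and -1.50 in CTRL (adjusted p = 0.00583). Shc3, a signalling adaptor, had -1.08 ± 0.30 in HI (adjusted p = 0.0433) and -2.26 in CTRL (adjusted p = 5.85e-05).

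**Figure D5:**
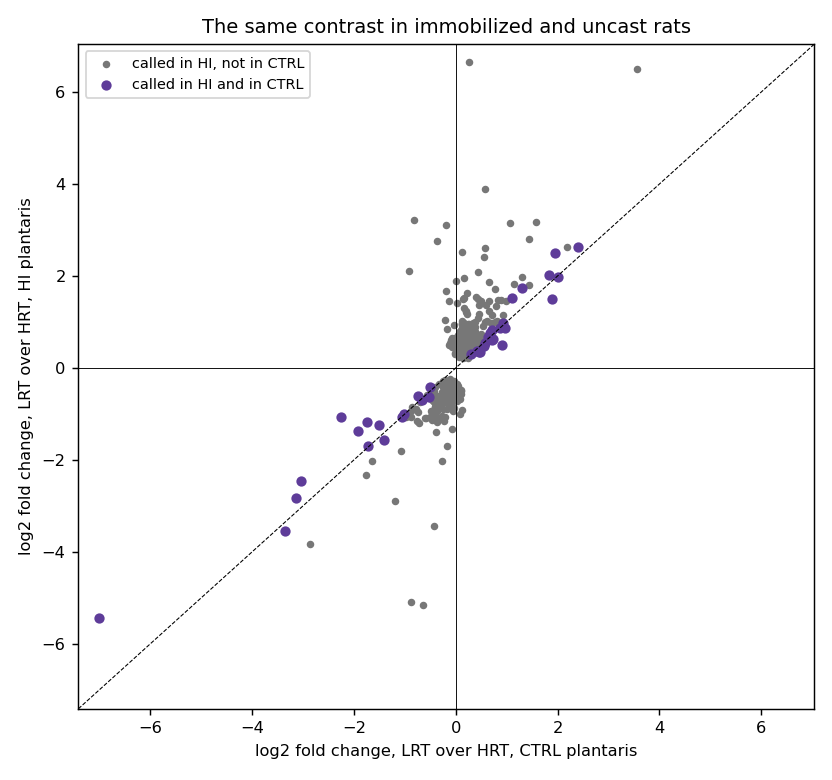
Log2 fold change of LRT over HRT in CTRL plantaris (x axis) and in HI plantaris (y axis) for the 410 genes called in HI, with a dashed line of equal values. The 38 purple genes were also called in CTRL, all in the same direction, and the median absolute value over the 410 genes is 0.629 on the y axis and 0.232 on the x axis.

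Among genes without a symbol, ENSRNOG00000014973 was higher in LRT in both treatments. Its level was 2.29, 2.83, 2.99, 1.90, 3.15 and 2.49 CPM in LRT HI rats 1 to 6 and 0.352, 0.223, 1.30, 0.280, 0.259 and 0.163 CPM in HRT HI rats 1 to 6, with no overlap and no lead of rats 1 and 3. The log2 fold change was 2.62 ± 0.45 (SE, edgeR adjusted p = 0.000663), 2.39 in CTRL (adjusted p = 0.0147) and 2.02 in HI soleus (adjusted p = 0.0186), and it passed with the 12 libraries alone (adjusted p = 0.0404). ENSRNOG00000057075 was lower in LRT in HI (-1.69, adjusted p = 0.00352) and in CTRL (-1.72, adjusted p = 0.00428). ENSRNOG00000019050 was at 0.245 to 0.458 CPM in LRT HI and 0.615 to 14.5 CPM in HRT HI, a log2 fold change of -3.82 (adjusted p = 0.0058), and -2.86 in CTRL (adjusted p = 0.0649). ENSRNOG00000032857 differed by 3.90 (adjusted p = 0.00842) in HI and by 0.57 in CTRL (adjusted p = 0.878), and LRT rat 1 was its highest at 7.41 CPM. Its HRT HI values were near the floor, at 0.064 to 0.291 CPM, and its smallest count in the HI plantaris libraries was 2. In HI soleus it was called as well (3.41, edgeR adjusted p = 0.00135), as was ENSRNOG00000019050 (-4.02, adjusted p = 0.000908). ENSRNOG00000057075 was not called there (-0.26, adjusted p = 0.70).

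Whether the line difference itself differed between HI and CTRL was tested as DELTA, which uses the same HI libraries as the contrast above. It called 0 of 16960 genes (0%) by edgeR, with a smallest adjusted p of 0.36, 1060 genes (6.25%) at an unadjusted p under 0.05, 0 genes by DESeq2 and 1 by limma-voom. DELTA was 1.85 for Tmem51, 1.15 for Nfkb2 and 2.94 for Rrad on the log2 scale, with adjusted p of 0.358, 0.746 and 0.746. A gene called in HI and not in CTRL was therefore not shown to differ between the treatments.

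In HI soleus, a slow-twitch muscle, the same contrast called 2076 genes (12.2%). The study took both muscles from the same limb, and same-numbered plantaris and soleus libraries deviated together from their group means (r across genes of 0.13 to 0.39 in the 12 HI rats), so the soleus does not stand for other animals. Of the 410 genes 376 (91.7%) had the same direction there, against 66.4% of all genes, and 149 were called in both, 147 of them in the same direction, which is 36.3% of the 410 and 7.18% of the 2076. Creg1, Gaa and Sqstm1 had log2 fold changes of 1.05, 0.67 and 0.79 in soleus and were called there, whereas Tmem51 had 0.31 (adjusted p = 0.558) and Nfkb2 0.13 (adjusted p = 0.783). The difference between the muscles was not tested. A set of 24 genes was called in all 3 contrasts, all in the same direction and 0 of them with a symbol.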

How the data were processed

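RNA from plantaris and soleus was sequenced in 48 libraries (6 in each of 8 groups), from 24 rats per the study's methods. The labels carry no animal identifier, and the fit treats both muscles of a rat as independent. Of 24 plantaris libraries 22 deviated most like the soleus library of the same group and number. The authors quantified transcripts with Salmon 0.9.1 (version in the submitters' processing notes) on Rnor_6.0 and summed them per gene. What they deposited are estimated counts, not scaled between libraries, for 31998 genes. Of these values 66% were not whole, and all were rounded. The labels and the methods name different TruSeq kits, so strandedness is unsettled.

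Genes were kept by filterByExpr, scaled by TMM and fitted with edgeR 4.0.16 (quasi-likelihood, 48 libraries, 8 groups and RNA integrity) in R 4.3.3, where SE is the fold change over the root of F. Principal components used log2 CPM with a prior count of 2. The alternatives used limma 3.58.1, DESeq2 1.42.0 and edgeR with other filters, scalings and libraries. Figures were drawn with matplotlib 3.10.9. The scripts were tested on simulated data. These had independent libraries and the same spread of a gene in all groups, so they do not test the wider spread of the HI groups.

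Symbols (1148 genes) came from the study's DEG tables, and 0 of 47357 reference entries carry an Ensembl identifier. Members and lists were chosen with earlier results of these data known. The rule named called genes with a symbol whose HI groups do not overlap (mean CPM of at least 1 in 1 group, up to 12 in each direction), the 5 of smallest p, 7 genes the study followed, called or largest members of 20 lists, and 4 genes without a symbol. The remaining called genes with a symbol were added after their values were seen. Over the 30 pairs of HI plantaris libraries within a line, no chi-square was below 19.3 per gene. Replicate counts cover these rats only, and depth errors cover counting alone. A pair of called genes is not reported here.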

Additional observations from a re-analysis of the deposited data

Results flagged for a closer look

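For 93 named genes the CPM of each HI group was searched for a rat far from the other 5, and 32 of 186 groups had one. Chance gives about 1 in 20 for independent values with a normal distribution. These genes move together, their CPM are skewed and all 32 rats were the highest of their group, so the count is a description. In 21 of the 32 it was HRT rat 4, the rat nearest to LRT rats 1 and 3 on the first principal component. HRT rat 4 was highest for Nfkb2 (26.43 CPM), Ltbp1 (129.8), Trim63 (1843), Uchl1 (2.64), Otulin (70.82), Zfand2a (203.0), Litaf (13.45), Gpnmb (138.1), Gadd45a (82.16), Myog (146.3) and Hspb1 (419). The same held for Htatip2 (12.7 CPM), Srxn1 (9.723), Odc1 (82.81), Zc3h12a (8.884), Map3k14 (50.88), Pnpla7 (276.6), Depdc7 (1.708), Slc31a2 (20.13), Tmem71 (5.622) and Zdhhc18 (11.84).

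HRT rat 5 was far above the other HRT rats for Hba-a2 (823.3 CPM), Hba-a1 (1092) and Akr1c3 (0.6795), HRT rat 3 for Ppargc1b (22.57) and ENSRNOG00000014973 (1.296), and HRT rat 6 for ENSRNOG00000019050 (14.45). In LRT HI, rat 5 was far above the others for Hspa2 (27.54 CPM), Ankrd2 (308.2) and Dupd1 (18.88), rat 2 for Cish (7.289) and rat 4 for Mfap4 (0.5992).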

How the results depend on the processing

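The 410 genes called in HI plantaris became 234 with library totals without TMM (92 of them lower, 39.3% in place of 32.2%), 706 with the DESeq2 Wald test, 186 with plantaris alone, 13 with the 12 HI plantaris libraries alone and 236 with all genes with any count. At an adjusted p under 0.001, 18 passed. Leaving out each HI rat in turn gave 92 to 1586, and of the 410 between 91 and 407 remained. Leaving out LRT rats 1 and 3 gave 45, and HRT rat 4 as well gave 101; both were chosen after seeing the data. The 89 genes in CTRL became 160 with DESeq2 and 56 with a minimum of 10 counts in each library, the 2076 in HI soleus became 1322 with soleus alone, and the 0 of DELTA became 1 with limma-voom. The cause of these shifts was not tested. The other alternatives stayed within 1.5 times the reported counts.

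Of 1143 values for the 48 called genes with a symbol under the alternatives, 455 fell short of the threshold and 0 reversed, and 80 values of named genes that were not called passed it. Of the 48, 48 kept the call with DESeq2, 46 with its size factors, 46 without RNA integrity, 39 with limma-voom, 32 with library totals, 30 with any count, 10 with plantaris alone and 0 with the 12 libraries. Without LRT rats 1 or 3 the call was kept by 8 and 11, without HRT rats 2, 3, 5 or 6 by 18, 15, 16 and 12, and without both LRT rats 1 and 3 by 1. With HRT rat 4 left out as well 10 kept it, among them Nfkb2 (edgeR adjusted p = 0.0224) and Ltbp1 (0.0204).

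With the replicate number as a block 524 genes were called, 402 of them among the 410. Between lines the numbers share only a label: they belong to different rats, their correlations between LRT HI and HRT HI ran from -0.31 to 0.26, and 1 of 6 rats correlated best with its own number. With same-numbered plantaris and soleus libraries of a group taken as 1 rat (limma-voom with a random effect, chosen after seeing the data) 387 genes were called, 332 of them among the 410.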
